A study of Mus musculus with 12 samples.

Results

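The transcriptome of NIH3T3, a mouse fibroblast line that grows without limit, was compared between cells given oligo 2, 1 of 2 siRNAs against UBF, and cells given sirEGFP, an siRNA named for EGFP that served as the control. The comparison was defined by its samples: the 3 oligo 2 arrays and the 3 sirEGFP arrays, 6 of the 12 arrays of the study, over 19938 genes. Each siRNA was transfected with Dharmafect 2 at 40 nM, and total RNA was taken after 48 h. The remaining arrays were 3 of Mock, which received the reagent and no siRNA, and 3 of oligo 1, the other siRNA against UBF. All 4 groups were the same line in DMEM with 10% serum and received the reagent. The study's design text describes the replicates as biological, and replicate numbers 1 to 3 recur in each group. Nothing in the labels says whether these were separate cultures, so p-values measure the spread between these arrays.

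UBF is the product of Ubtf, and in the nucleolus it binds the repeated ribosomal RNA genes, where it bends and opens their chromatin and helps RNA polymerase I start transcription there. The ribosomal RNA made by Pol I is cut and chemically modified with the help of small nucleolar RNAs (snoRNAs), and is joined with ribosomal proteins in the nucleolus. Disturbed ribosome production is known to free ribosomal proteins that bind Mdm2, which lets p53 accumulate. The comparison asks which transcripts differ when this siRNA is set against a control siRNA.

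The medians of the 12 arrays, in log2 units, ranged from 5.38 to 5.54. The deposited values do not show signal over background, and precision is limited by the number of arrays. Across genes, arrays of the same group among the 6 correlated at Pearson's r of 0.988 to 0.994, and arrays of different groups at 0.983 to 0.992. The main axis of spread within groups held 41.5% of that variance, and sirEGFP 1 and oligo 2 array 1 lay on the same side of it. Of 16 fibroblast markers 14 had log2 changes above 0 with oligo 2 against sirEGFP, as had 9634 of all 19938 genes. Their median change was 0.27. The fibroblast transcripts Vim, for the intermediate filament vimentin, and Col1a2, for a chain of collagen I, were read on all 6 arrays. These 2 differed little between the groups and do not stand for that list. Vim read 12.76, 12.83 and 12.87 with sirEGFP and 12.80, 12.91 and 12.81 with oligo 2, and Col1a2 read 9.04, 8.68 and 8.89 with sirEGFP and 9.04, 8.61 and 9.09 with oligo 2.

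Ubtf itself read 8.68, 8.31 and 8.04 with sirEGFP and 7.90, 7.83 and 7.49 with oligo 2, so that all 3 oligo 2 arrays lay below all 3 sirEGFP arrays. On the Mock arrays it read 8.54, 8.63 and 8.41. Ubtf stood at a log2 change of -0.61 ± 0.17 against sirEGFP (limma's moderated standard error, SE, as for every ± given with a change, n = 3 against 3), or 0.657 of the sirEGFP level. The change did not pass limma's test over all genes (Benjamini-Hochberg adjusted p = 0.0771), and an exact permutation test of 3 arrays against 3 gave p = 0.10 (two-sided, 20 splits), the smallest this design allows. Ubtf passed with the replicate number as a block (adjusted p = 0.0115), with array weights (0.0204), with the mean of sirEGFP and Mock as control (0.0114) and without sirEGFP 3 (-0.76, 0.0490). Over all alternatives its adjusted p lay between 0.0114 and 0.2996. Against Mock Ubtf fell by 0.79 (adjusted p = 0.0146), and against oligo 1 it stood at -0.052 (95% interval -0.40 to 0.30). In cells in bulk, fewer cells that carry a transcript and less of it in each cell cannot be told apart.

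**Figure D1:**
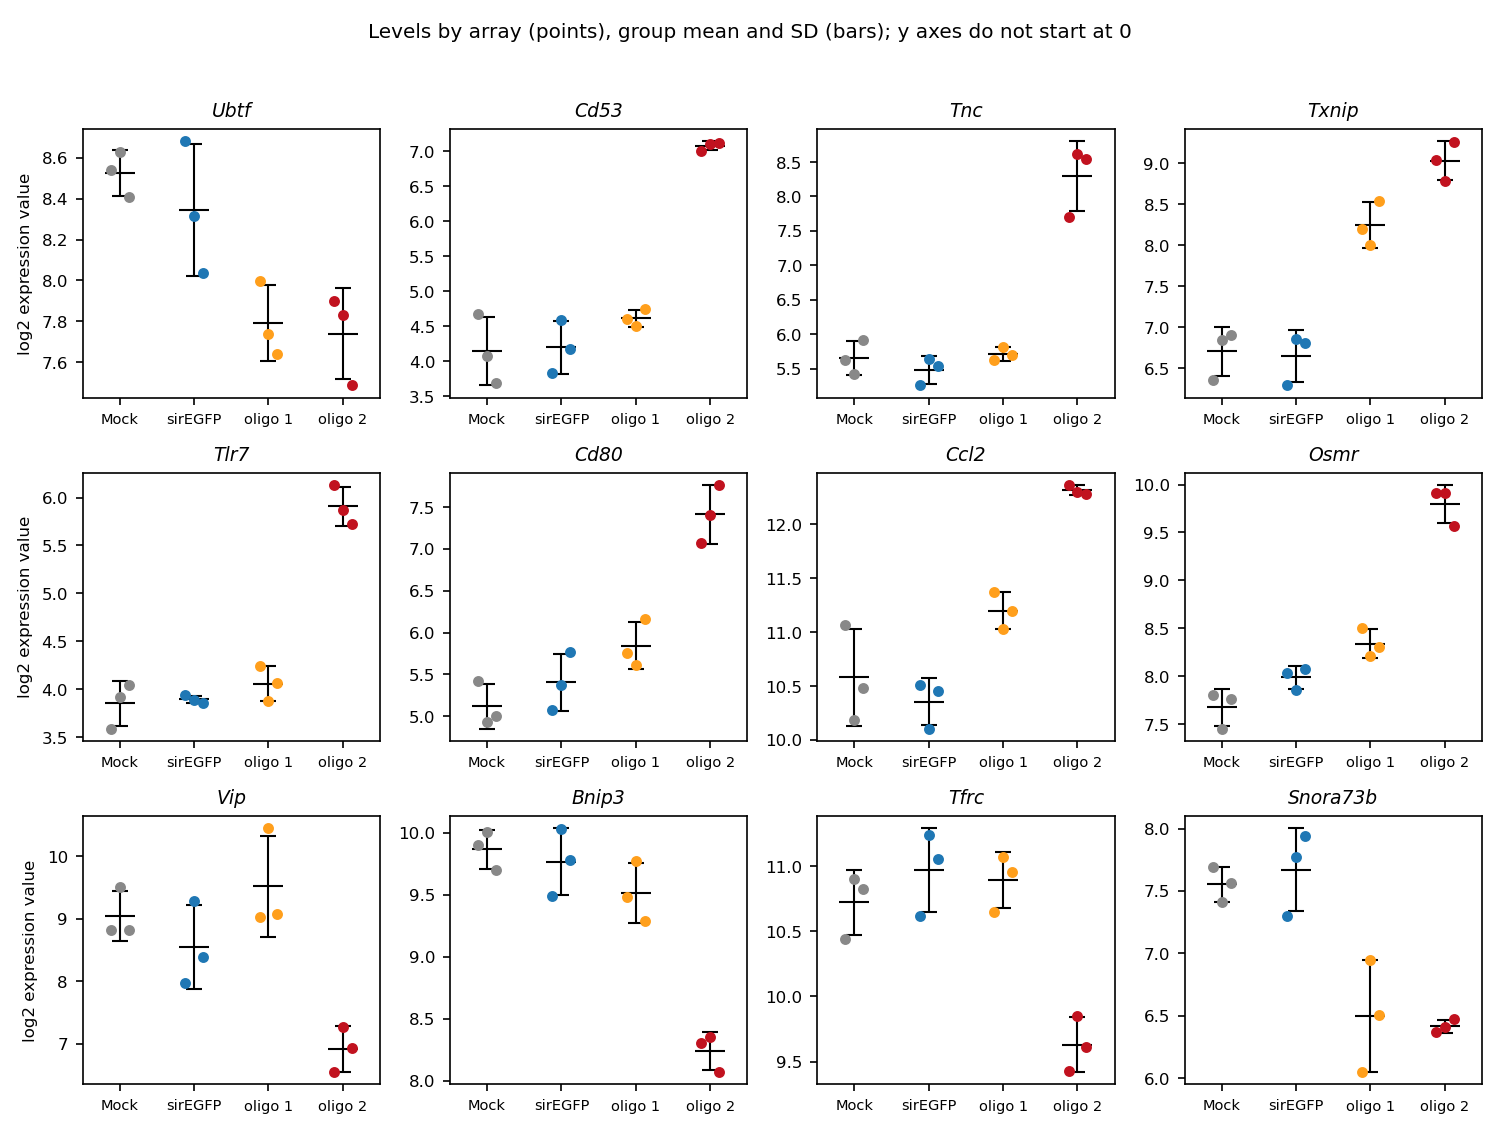
Log2 expression values (y axis, not starting at 0) of Ubtf and 11 genes that changed, by group (x axis). Points are arrays, and bars are the group mean and SD (n = 3). The oligo 2 arrays lie apart from both control groups in all 12 panels, and from oligo 1 in all but those of Ubtf and Snora73b. The 11 genes were ranked among genes with no overlap with sirEGFP, so that separation was set by the choice.

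With oligo 2, 451 genes, or 2.26% of those tested, differed from sirEGFP at a limma adjusted p under 0.05, the limit for a call throughout. Of these, 303 were higher (1.52% of genes) and 148 lower (0.742%). At least 2-fold changes were found in 66 of the higher and 20 of the lower genes, and the median size of a called change was 0.72 on the log2 scale. At an unadjusted p under 0.05, 1493 of the 19938 genes were higher and 1073 lower, beside which list counts at that limit stand. In all 303 higher genes the oligo 2 arrays lay above all sirEGFP arrays, a separation seen in 9.83% of all genes, and in all 148 lower genes they lay below, seen in 8.62%. Beyond all 6 arrays of sirEGFP and Mock lay 285 of the higher genes (6.52% of all genes did so) and 135 of the lower ones (3.85%). The calls used these same oligo 2 and sirEGFP arrays, so both separations follow in large part from them and are no further support. Set against Mock, which shares the oligo 2 arrays with this comparison, oligo 2 gave 848 called genes (4.25%), 585 higher (2.93%) and 263 lower (1.32%), or 760 and 196 with each array centred on its median. That count was 307 and 374 without Mock 1 and 2, and 472, 400 and 342 without oligo 2 arrays 1, 2 and 3. Between sirEGFP and Mock limma called 0 genes (0%), with 1247 at an unadjusted p under 0.05 and a smallest adjusted p of 0.123, and at most 7 by any alternative fit. Array weights gave 2 genes there and the replicate block gave 3.

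The number of called genes was sensitive to single arrays. Leaving out sirEGFP 2 or 3 gave 198 or 200 calls, and leaving out oligo 2 array 1, 2 or 3 gave 230, 237 or 218. Of the 451 genes, 197 and 192 kept their call in the first pair of fits, and 227, 220 and 210 in the other 3. Arrays of oligo 2 and sirEGFP with the same number deviated together, and with that number as a block 773 genes were called, 545 higher and 228 lower, with all 451 among them. Without sirEGFP 1 and oligo 2 array 1 together, the pair on 1 side of the main axis, the count was 203, of which 191 were among the 451. None of the 451 turned its direction in any alternative. In each the oligo 2 and sirEGFP arrays did not overlap, so this was largely fixed by the call and is no further support.

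**Figure D2:**
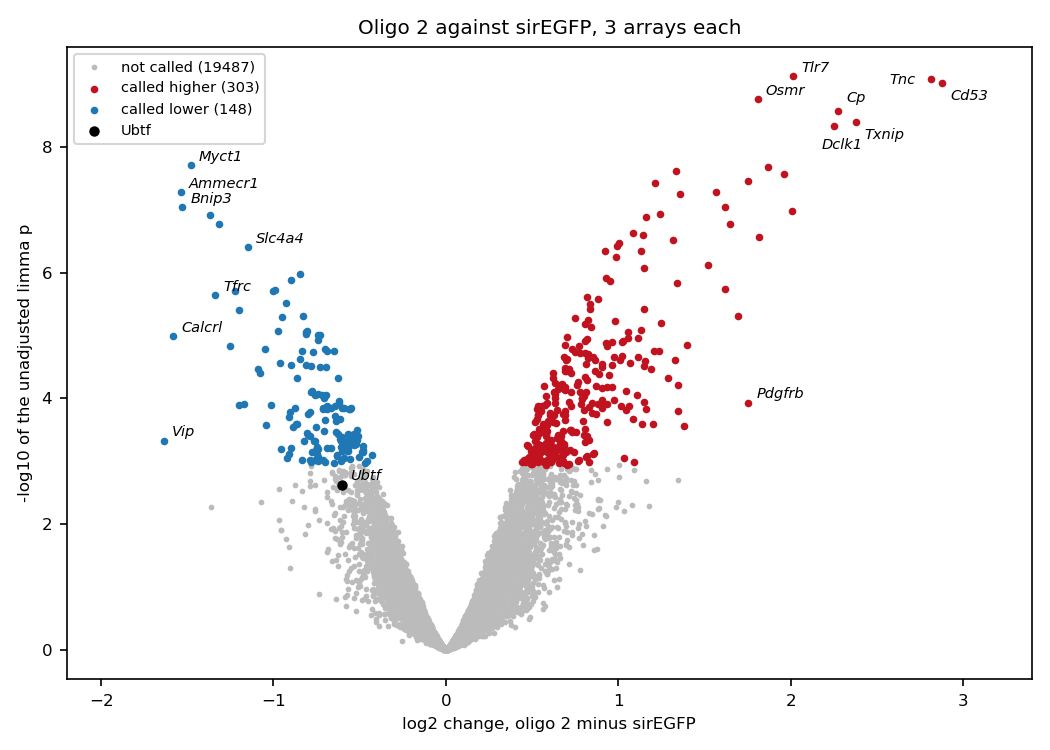
The log2 change with oligo 2 against sirEGFP (x axis) and -log10 of the unadjusted limma p (y axis) of 19938 genes, each a point. The 303 genes called higher and the 148 called lower are coloured, and Ubtf is shown in black at -0.61.

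The gene with the highest change was Cd53, a tetraspanin of the leukocyte surface. It read 3.84, 4.59 and 4.17 with sirEGFP and 7.01, 7.10 and 7.12 with oligo 2, a rise of 2.88 ± 0.21 or 7.35-fold (adjusted p = 6.56e-06). Tnc, for the matrix glycoprotein tenascin C, read 5.25, 5.64 and 5.54 with sirEGFP and 7.71, 8.62 and 8.55 with oligo 2 and rose by 2.81 ± 0.21 (adjusted p = 6.56e-06). For both genes the nearest arrays of the groups were more than 2 log2 units apart, though the choice of genes had already required no overlap. Dclk1, a kinase that binds microtubules, read 7.70, 7.33 and 7.10 with sirEGFP and 9.86, 9.41 and 9.62 with oligo 2 and rose by 2.25 ± 0.19 (adjusted p = 1.35e-05). Txnip, the inhibitor of thioredoxin, read 6.29, 6.86 and 6.80 with sirEGFP and 9.03, 8.79 and 9.26 with oligo 2 and rose by 2.38 ± 0.20. Cp, the ferroxidase ceruloplasmin, read 6.18, 6.19 and 6.13 with sirEGFP and 8.32, 8.27 and 8.73 with oligo 2 and rose by 2.28 ± 0.18. Txnip and Cp also exceeded their Mock levels, by 2.32 and 2.12 (adjusted p = 1.88e-05 and 2.06e-05).

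Of the other genes among the 15 highest, Tlr7, the endosomal receptor for single-stranded RNA, read 3.94, 3.89 and 3.86 with sirEGFP and 6.13, 5.87 and 5.72 with oligo 2 and rose by 2.01 ± 0.15 (adjusted p = 6.56e-06). Cd80, a costimulatory ligand for T cells, read 5.08, 5.37 and 5.77 with sirEGFP and 7.07, 7.40 and 7.76 with oligo 2 and rose by 2.01 ± 0.21. The chemokine genes Ccl2 and Ccl7, whose products attract monocytes, lie beside each other in the genome and rose by 1.96 and 1.75. Ccl2 read 10.51, 10.10 and 10.45 with sirEGFP and 12.36, 12.30 and 12.28 with oligo 2. Osmr, the receptor subunit for oncostatin M, read 8.04, 7.85 and 8.08 with sirEGFP and 9.91, 9.91 and 9.57 with oligo 2 and rose by 1.81 ± 0.14. Serpinb6b, an intracellular serpin, rose by 1.87.

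Cd53, Tlr7 and Cd80 are known from leukocytes, and macrophage markers were read beside them. Limma called 0 of 10 macrophage markers (2.26% of all genes were called), with 1 higher and 1 lower at an unadjusted p under 0.05, and their median change was -0.064. Their mean level ranged from 4.79 to 4.96 on the sirEGFP arrays and from 4.72 to 5.005 with oligo 2. Ptprc, the common leukocyte antigen CD45, read 3.86, 3.93 and 4.06 with sirEGFP and 3.78, 4.07 and 3.89 with oligo 2. Neither Ptprc nor Adgre1 (F4/80, -0.18, adjusted p = 0.585), Itgam (-0.21, 0.667) or Csf1r (0.036, 0.962) was called. Cd68, a lysosomal glycoprotein, stood at 1.003 without passing (adjusted p = 0.0648), and it passed with the replicate block (0.00137). The marker Lyz2 went the other way and did not pass either (adjusted p = 0.119). It passed at -0.61 with the block and the 2 groups alone (0.0245). With the mean of sirEGFP and Mock as control it passed at -0.68 (0.0253).

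Next among the 15 highest, Plpp3, a phosphatase of bioactive lipids, rose by 1.82 (adjusted p = 0.000202), and Ranbp3l, a Ran-binding protein, by 1.70 (0.00181). Fabp4, a fatty acid carrier of adipocytes and macrophages, read 5.88, 5.55 and 5.91 with sirEGFP and 7.64, 7.23 and 7.40 with oligo 2 and rose by 1.65 ± 0.18. Among the 11 adipocyte markers Fabp4 alone was called, and the median of the list was -0.091. The adipocyte transcripts Adipoq (-0.076, adjusted p = 0.886), Plin1 (-0.091, 0.841) and Pparg (-0.15, 0.7295) did not pass. Pdgfrb, a receptor for platelet-derived growth factor, read 6.90, 5.84 and 5.73 with sirEGFP and 8.36, 7.52 and 7.86 with oligo 2 and rose by 1.75 ± 0.34 (adjusted p = 0.0126). Its sirEGFP array 1 lay nearer to the oligo 2 arrays than the other two did, and against Mock Pdgfrb was not called (0.91, adjusted p = 0.178). Its call was lost without oligo 2 array 1, or sirEGFP 2 or 3 (adjusted p = 0.0699 to 0.0734).

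Promoters of these genes were read from RefSeq, with build GRCm38.p6 and 250 bases before to 50 after the first listed start, which 15562 of the 19938 genes had. The letters TGANTCA, a core of the AP-1 site, searched on both strands, were in 6.97% of all these promoters, in 9.84% of those of genes called higher (244 of 303 with an entry) and in 6.09% of those called lower (115 of 148). Of the 48 promoters of genes at least 2-fold higher, 12 (25.0%) held them, a subset looked at after its values were seen. TATAAA was in 12.1% of all promoters, 7.79% of the higher and 5.22% of the lower genes. CACGTG was in 8.40%, 6.97% and 7.83%, CCAAT in 38.3%, 40.2% and 44.3%, and TGACGTCA in 2.50%, 2.05% and 5.22%. None of these motifs contains another, and a match describes the letters and is no evidence of binding. Upstream stretches of 5 of the raised genes that hold TGANTCA are shown, since they differ in where it lies, at 42 (Cd80), 177 (Cp), 211 (Fas), 249 (Il6) and 228 (Lif) bases before the start. They run 5′ to 3′ on the plus strand, and capitals mark TGANTCA. The stretch of Cd80 is chr16:38458683-38458932, that of Cp chr3:19956804-19957053, that of Fas chr19:34290409-34290658, that of Il6 chr5:30012864-30013113 and that of Lif chr11:4257318-4257567.
Cd80: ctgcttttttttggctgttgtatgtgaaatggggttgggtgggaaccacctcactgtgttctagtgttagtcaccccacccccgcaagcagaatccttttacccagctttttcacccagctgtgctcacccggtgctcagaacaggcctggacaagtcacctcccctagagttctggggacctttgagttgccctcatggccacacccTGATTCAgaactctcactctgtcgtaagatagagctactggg
Cp: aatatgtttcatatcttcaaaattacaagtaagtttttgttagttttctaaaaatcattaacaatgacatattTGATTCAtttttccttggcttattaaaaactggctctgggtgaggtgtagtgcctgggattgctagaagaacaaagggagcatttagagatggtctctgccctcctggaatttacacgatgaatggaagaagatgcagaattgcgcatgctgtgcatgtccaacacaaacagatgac
Fas: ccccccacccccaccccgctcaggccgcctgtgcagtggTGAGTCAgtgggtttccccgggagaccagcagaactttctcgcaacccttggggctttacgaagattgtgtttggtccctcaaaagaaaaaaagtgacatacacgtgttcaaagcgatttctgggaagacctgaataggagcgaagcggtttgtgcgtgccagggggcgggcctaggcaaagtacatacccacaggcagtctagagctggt
Il6: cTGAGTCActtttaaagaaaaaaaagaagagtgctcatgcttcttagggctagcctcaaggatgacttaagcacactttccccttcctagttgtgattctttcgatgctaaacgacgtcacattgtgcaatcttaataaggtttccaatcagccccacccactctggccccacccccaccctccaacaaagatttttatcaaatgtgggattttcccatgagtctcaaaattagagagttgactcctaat
Lif: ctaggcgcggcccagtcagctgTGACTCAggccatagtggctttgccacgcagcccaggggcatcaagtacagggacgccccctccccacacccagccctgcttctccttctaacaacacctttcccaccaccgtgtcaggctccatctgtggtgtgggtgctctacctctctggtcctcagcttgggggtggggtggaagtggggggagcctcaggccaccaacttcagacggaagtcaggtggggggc

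Among the genes that fell, Vip, for vasoactive intestinal peptide, had the lowest change. It read 7.97, 9.29 and 8.40 with sirEGFP and 6.54, 7.27 and 6.93 with oligo 2, and its change was -1.64 ± 0.37 (adjusted p = 0.0304). The sirEGFP arrays of Vip were spread over more than 1 log2 unit, and the call was lost without oligo 2 array 1, 2 or 3, or sirEGFP 2 or 3 (adjusted p = 0.0524 to 0.153), or with sirEGFP 1 and oligo 2 array 1 left out together (adjusted p = 0.0704). Calcrl, a receptor for calcitonin gene-related peptide and adrenomedullin, read 6.61, 7.38 and 7.06 with sirEGFP and 5.24, 5.17 and 5.89 with oligo 2 and stood at -1.58 ± 0.24 (adjusted p = 0.00288). Bnip3, a mitochondrial protein of the BCL2 family that responds to hypoxia, read 9.49, 10.03 and 9.79 with sirEGFP and 8.30, 8.35 and 8.07 with oligo 2 and stood at -1.53 ± 0.16 (adjusted p = 0.000102). Tfrc, the transferrin receptor that takes up iron, read 10.61, 11.24 and 11.06 with sirEGFP and 9.43, 9.85 and 9.61 with oligo 2 and stood at -1.34 ± 0.18 (adjusted p = 0.000986). For Bnip3 and Tfrc every oligo 2 array also lay below every Mock array, as for 135 of the 148 genes called lower.

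Ammecr1 (-1.54, adjusted p = 7.102e-05), Myct1 (-1.48, 4.72e-05) and Cacul1 (-1.32, 0.000143) also fell. Gpat3, an acyltransferase of triglyceride synthesis, changed by -1.37 (adjusted p = 0.000117). Of mitochondrial proteins, Mrpl3, of the large mitochondrial ribosomal subunit, changed by -1.23 (0.000877) and Txn2, the mitochondrial thioredoxin, by -1.09 (0.005304). S100a7a, of the S100 calcium-binding family, changed by -1.20 (0.00146). Slc4a4, a sodium bicarbonate cotransporter, read 8.19, 7.93 and 7.86 with sirEGFP and 6.92, 6.83 and 6.78 with oligo 2 and changed by -1.15 ± 0.13 (0.000253). The remaining 3 of the 15 lowest were snoRNAs. Against Mock, Gpat3 stood at -0.74, Calcrl at -0.98, Ammecr1 at -1.08 and Cacul1 at -0.91. All of these were called, but fell by less than against sirEGFP. Vip, Bnip3, S100a7a, Txn2 and the snoRNA Snord52 fell by more against Mock than against sirEGFP.

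Where oligo 2 differed from oligo 1 was tested in the same fit, since both target Ubtf. The oligo 2 arrays are shared with the main comparison. Genes picked for their distance from sirEGFP are thereby favoured to differ here in the same direction. Oligo 2 and oligo 1 differed in 732 genes (3.67% of those tested), of which 459 were higher with oligo 2 (2.3%) and 273 lower (1.37%), or 637 and 192 with median centring. Of the 303 genes higher than sirEGFP, 119 were also higher than with oligo 1, and of the 148 lower genes 79 were also lower. The 15 highest genes were all among the 119, by 0.69 for Ccl7 to 2.58 for Tnc. Cd53 was 2.46 above oligo 1 (adjusted p = 2.73e-05), Tlr7 1.85 (1.88e-05) and Dclk1 2.06 (4.45e-05), and Txnip 0.78 (0.0383) and Cp 0.95 (0.00816). Tnc on the oligo 1 arrays read 5.62, 5.82 and 5.70. Vip was -2.60 relative to oligo 1 (0.00112), and Bnip3 (-1.27, 0.0006397), Tfrc (-1.26, 0.00122) and Cacul1 (-1.36, 0.000174) were lower too.

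Some of the largest changes did not differ between the siRNAs beyond the test. Calcrl stood at -0.53 relative to oligo 1 (95% interval -1.05 to -0.016, adjusted p = 0.327), Snora73b at -0.084 (-0.51 to 0.34), Snord52 at -0.25 (-0.75 to 0.25) and Snora73a at 0.12 (-0.37 to 0.60). These intervals still allow differences of some size. Exactly 3 called genes differed from oligo 1 in the direction opposite to their change. H2bc4, a histone gene, was 1.16 above sirEGFP and -1.08 relative to oligo 1 (adjusted p = 0.0157). Slc4a4 lay 0.60 above oligo 1 (0.0198), and Fancb, of the Fanconi anaemia repair pathway and named after its values were seen, lay 0.65 above it (0.0329). H2bc4 was not called against sirEGFP without oligo 2 array 1 or 3, or sirEGFP 2 or 3 (adjusted p = 0.0677 to 0.0875). The count of 732 fell to 451, 402 and 328 without oligo 2 arrays 1, 2 and 3 and to 373 without oligo 1 array 3. With the 6 arrays of both siRNAs fitted alone it was 380. It was 211 once sirEGFP 1 and oligo 1 arrays 1 and 2, which mark the axis ends, were dropped, a fit that leaves oligo 1 with 1 array, assumed to vary like the arrays of the other groups. It rose to 1094 with the replicate block, 669 higher and 425 lower, and to 3164 with array weights. Those weights leaned on oligo 1 array 3, at 8.92 against 0.44 and 0.42 for oligo 1 arrays 1 and 2.

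**Figure D3:**
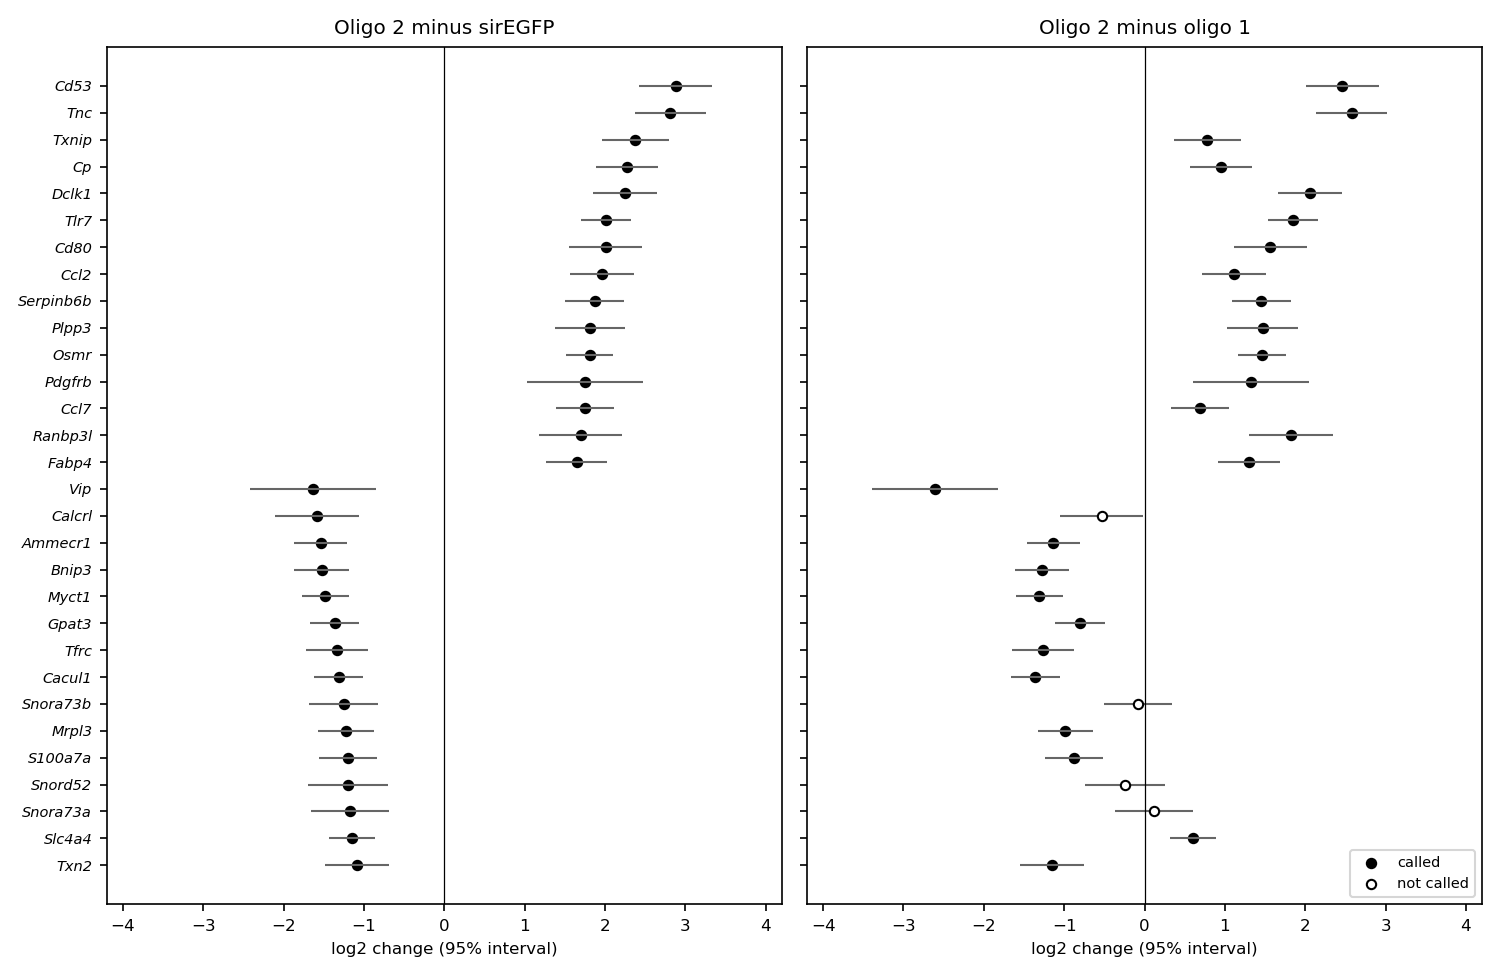
Log2 changes (x axis) with limma's 95% interval of the 15 highest and 15 lowest genes (y axis), oligo 2 minus sirEGFP on the left and oligo 2 minus oligo 1 on the right. Filled points were called. On the right 26 genes were called, Slc4a4 in the opposite direction, and Calcrl, Snora73b, Snord52 and Snora73a were not.

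Targets of p53, which act in growth arrest, death and repair, were raised in part. Of 34 measured targets 6 rose and 0 fell (9 and 0 with the block). At an unadjusted p under 0.05, 17 were higher, as were 1493 of all 19938 genes. The median change of the list was 0.38 against -0.0077 over all genes, and 1.52% of all genes were called higher and 0.742% lower, the shares beside which the list counts here stand. Cdkn1a, Bax and Gdf15, well-known targets that were on the list, are not analysed here. Fas, the death receptor, read 5.85, 5.37 and 5.86 with sirEGFP and 7.32, 6.94 and 7.38 with oligo 2 and rose by 1.52 ± 0.19 (adjusted p = 0.000438). Trp53inp1, which promotes p53 activity and autophagy, read 6.68, 6.88 and 6.998 with sirEGFP and 7.66, 7.77 and 8.22 with oligo 2 and rose by 1.03 ± 0.16 (0.00311). On the Mock arrays Trp53inp1 read 5.86, 5.86 and 6.20. Its sirEGFP level stood 0.88 above Mock (limma unadjusted p = 6.22e-05), which did not pass over all genes (adjusted p = 0.310). Fas and Trp53inp1 were also above oligo 1, by 1.28 and 0.93 (adjusted p = 0.00145 and 0.00432). The antiproliferative gene Btg2 rose by 0.91, Zmat3, an RNA-binding target, by 0.73, Abhd4, a lipid hydrolase, by 0.71 and the nuclease gene Ercc5 by 0.67. Mdm2, whose product marks p53 for destruction, read 9.32, 9.18 and 9.63 with sirEGFP and 9.86, 9.73 and 10.24 with oligo 2 and did not pass (0.56, adjusted p = 0.116). Mdm2 was named after its value was seen. The count of 6 became 3, 3 and 2 without oligo 2 arrays 1, 2 and 3, and 2 without sirEGFP 2. It was 11 with array weights, 10 with the mean of sirEGFP and Mock as control and 13 with the block and the 2 groups alone. In these larger counts' fits 762, 665 and 758 of all 19938 genes were higher. Btg2 lost its call without oligo 2 array 3, or sirEGFP 2 (adjusted p = 0.0666 to 0.0716), or with sirEGFP 1 and oligo 2 array 1 left out together (adjusted p = 0.09901). Zmat3 lost it without oligo 2 array 1, 2 or 3, or sirEGFP 2 (adjusted p = 0.0626 to 0.137), or with sirEGFP 1 and oligo 2 array 1 left out together (adjusted p = 0.1197). Ercc5 lost it without oligo 2 array 1, 2 or 3, sirEGFP 1 or 2, Mock 1, or oligo 1 array 3 (adjusted p = 0.0505 to 0.151), or with the 3 arrays at the axis ends left out, the 6 arrays fitted alone or sirEGFP 1 and oligo 2 array 1 left out together (adjusted p = 0.0615 to 0.124). Abhd4 lost it without oligo 2 array 1, 2 or 3, sirEGFP 2 or 3, Mock 1, 2 or 3, or oligo 1 array 3 (adjusted p = 0.0516 to 0.221), or with an intensity trend, median centring, the 6 arrays fitted alone or sirEGFP 1 and oligo 2 array 1 left out together (adjusted p = 0.0533 to 0.135). Against Mock Ercc5 (0.57, adjusted p = 0.0511) and Abhd4 (0.61, 0.0704) did not pass.

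Of 28 apoptosis effectors and BCL2 family genes 1 rose, or 3.57% against 1.52% of all genes, and 0 fell, at a median of 0.017. This was Bcl2l11, for the BH3-only protein BIM, with 0.78 ± 0.15 (adjusted p = 0.0128), which was also 0.98 above oligo 1 (0.00203). Cflar, an inhibitor of death receptor signalling, stood at -0.64 (0.0688) and was called with the block (0.0149). Bcl2l11 was not called without oligo 2 array 1 or 3, or sirEGFP 2 (adjusted p = 0.05904 to 0.0732), or with sirEGFP 1 and oligo 2 array 1 left out together (adjusted p = 0.0903).

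Of 33 chemokines, cytokines and NF-kB targets 7 rose and 0 fell, at a list median of 0.10. Besides Ccl2 and Ccl7 these included Vcam1, the adhesion molecule for leukocytes, which read 8.43, 8.61 and 8.37 with sirEGFP and 9.55, 9.65 and 9.45 with oligo 2 and rose by 1.08 ± 0.12 (adjusted p = 0.000185). Vcam1 arrays of sirEGFP and Mock lay within a narrow range, and oligo 2 was also 1.03 above oligo 1 (0.000444). Il6, for interleukin 6, read 5.58, 5.67 and 5.24 with sirEGFP and 7.14, 6.84 and 7.37 with oligo 2 and rose by 1.62 ± 0.21 (0.000871). Lif, for leukemia inhibitory factor, read 5.88, 5.36 and 5.34 with sirEGFP and 7.03, 6.41 and 6.85 with oligo 2 and rose by 1.24 ± 0.20 (0.003802). Neither passed against oligo 1, with Il6 at 0.79 (95% interval 0.33 to 1.25, adjusted p = 0.05699) and Lif at 0.34 (-0.082 to 0.77). Cxcl10, an interferon-induced chemokine, rose by 0.97 (0.00868) and was 1.02 above oligo 1 (0.00432). Its call was lost without oligo 2 array 1 (adjusted p = 0.0513), or with sirEGFP 1 and oligo 2 array 1 left out together (adjusted p = 0.119).

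Of 39 interferon-stimulated genes 3 rose, or 7.69% against 1.52% of all genes, and 0 fell. The list median was 0.18, and 32 of the 39 changes were above 0, as were 9634 of all 19938. Tap1, a transporter of antigenic peptides, rose by 0.96 ± 0.15 (adjusted p = 0.00314). Ifitm3, which restricts viral entry, rose by 0.77 ± 0.12 (0.00343), and Ddx58, the RNA sensor RIG-I, by 0.75 ± 0.12 (0.00383). Tap1 was above oligo 1 by 0.64 (0.0261), while Ifitm3 (0.23, 95% interval -0.032 to 0.49) and Ddx58 (0.21, -0.044 to 0.47) did not pass there. Ddx58 was lost with sirEGFP 1 and oligo 2 array 1 left out together (adjusted p = 0.05202).

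Of 38 matrix glycoproteins and proteoglycans 4 rose and 1 fell (10 and 1 with the replicate block), at a median of 0.12. Besides Tnc, Vcan, for the proteoglycan versican, read 9.86, 9.71 and 10.09 with sirEGFP and 11.02, 11.13 and 11.26 with oligo 2 and rose by 1.25 ± 0.18 (adjusted p = 0.00207). Bgn, for biglycan, rose by 0.94 and Lamb1, a laminin chain, by 0.63, while Mfap5, of microfibrils, fell by 0.57. Bgn was not called against Mock (0.39, adjusted p = 0.381), nor against sirEGFP without oligo 2 array 1, 2 or 3, or sirEGFP 2 or 3 (adjusted p = 0.06301 to 0.108). Lamb1 lost its call without oligo 2 array 1, 2 or 3, sirEGFP 2 or 3, or Mock 1 (adjusted p = 0.0528 to 0.178), or with the 6 arrays fitted alone or sirEGFP 1 and oligo 2 array 1 left out together (adjusted p = 0.0544 to 0.0638). Mfap5 lost it without oligo 2 array 2 or 3, sirEGFP 1, 2 or 3, or oligo 1 array 3 (adjusted p = 0.0522 to 0.132), or with median centring, the 6 arrays fitted alone or sirEGFP 1 and oligo 2 array 1 left out together (adjusted p = 0.0605 to 0.0838).

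Limma called 0 of 31 collagens and collagen-processing genes, with 7 higher and 2 lower at an unadjusted p under 0.05 and a median of 0.11. With the block 3 were higher and 1 lower. Col5a2, a chain of collagen V, stood at -0.51 (adjusted p = 0.0752), and P4ha3, a prolyl hydroxylase, at 0.999 (0.108). Of 25 matrix proteases and inhibitors 2 rose and 0 fell (6 and 0 with the block), at a median of 0.071. Mmp19, a metalloproteinase, read 6.23, 5.69 and 5.62 with sirEGFP and 7.33, 6.76 and 6.91 with oligo 2 and rose by 1.15 ± 0.19 (0.00456), but did not pass against Mock (0.64, 0.0791). Plau, for urokinase, rose by 1.05 (0.00947) and lost its call without oligo 2 array 1 or 3, or sirEGFP 3 (adjusted p = 0.0515 to 0.0529).

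Of 27 targets of TGF-beta and YAP 2 rose and 1 fell (4 and 1 with the block), at a median of 0.12. Id1, a target of BMP and SMAD signalling, rose by 1.02 (adjusted p = 0.0132) and Ltbp2, a matrix protein related to TGF-beta binding proteins, by 0.61 (0.0314), while Inhba, for the activin A subunit, fell by 0.64 (0.0161). Id1 lost its call without oligo 2 array 1 or 3, or sirEGFP 2 (adjusted p = 0.0662 to 0.07998), or with sirEGFP 1 and oligo 2 array 1 left out together (adjusted p = 0.0736). Inhba lost it without oligo 2 array 1 or 2, or sirEGFP 2 or 3 (adjusted p = 0.0516 to 0.0968), or with the mean of sirEGFP and Mock as control or sirEGFP 1 and oligo 2 array 1 left out together (adjusted p = 0.0546 to 0.145). Against Mock neither Inhba (-0.16, adjusted p = 0.672) nor Id1 (0.72, 0.0545) was called, and Inhba overlapped the Mock arrays, which read 7.05, 6.86 and 7.19. Ltbp2 lost it without oligo 2 array 1, 2 or 3, sirEGFP 1 or 3, or oligo 1 array 3 (adjusted p = 0.0518 to 0.144), or with the 3 arrays at the axis ends left out, the 6 arrays fitted alone or sirEGFP 1 and oligo 2 array 1 left out together (adjusted p = 0.05899 to 0.137). Among 20 contractile genes of smooth muscle and myofibroblasts limma called 0, with 0 at an unadjusted p under 0.05 and a median of 0.041. Actg2, an actin of smooth muscle, stood at 0.44 (0.471).

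Growth factor ligands and receptors had 3 of 33 higher and 0 lower (5 and 0 with the block), at a median of 0.035. The called genes were Nrg1, for the ErbB ligand neuregulin, and the receptors Pdgfra and Pdgfrb. Nrg1 read 6.65, 6.64 and 6.56 with sirEGFP and 7.33, 7.51 and 7.48 with oligo 2. It rose by 0.82 ± 0.11 (adjusted p = 0.00103), with a difference from oligo 1 of 0.53 (0.0139). Pdgfra read 8.10, 7.72 and 7.86 with sirEGFP and 8.96, 8.60 and 8.84 with oligo 2 and rose by 0.91 ± 0.17 (0.0118), and was 0.81 above oligo 1 (0.016). Both receptors are fibroblast markers, a list in which they were the 2 of 16 called (7 with the block) and whose median was 0.27. The mean level of that list ranged from 7.58 to 7.76 on sirEGFP arrays and from 8.06 to 8.15 with oligo 2. Pdgfra lost its call without oligo 2 array 1 or 3, or sirEGFP 2 or 3 (adjusted p = 0.0525 to 0.0712), or with sirEGFP 1 and oligo 2 array 1 left out together (adjusted p = 0.0537).

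Of 27 integrins and adhesion genes 2 rose and 0 fell (4 and 1 with the block), at a median of 0.17. Itgb8, an integrin subunit that activates TGF-beta, rose by 0.94 (adjusted p = 0.0128) and was 0.99 above oligo 1 (0.00647). Ncam1, a neural adhesion molecule, rose by 0.59 (0.0344). Itgb8 was not called without oligo 2 array 2 or 3, or sirEGFP 3 (adjusted p = 0.0516 to 0.0727), or with sirEGFP 1 and oligo 2 array 1 left out together (adjusted p = 0.0905). Ncam1 was not called without oligo 2 array 1, 2 or 3, sirEGFP 1, 2 or 3, or oligo 1 array 3 (adjusted p = 0.0556 to 0.138), or with the 3 arrays at the axis ends left out, the 6 arrays fitted alone or sirEGFP 1 and oligo 2 array 1 left out together (adjusted p = 0.05803 to 0.135), nor against Mock (0.40, adjusted p = 0.128).

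**Figure D4:**
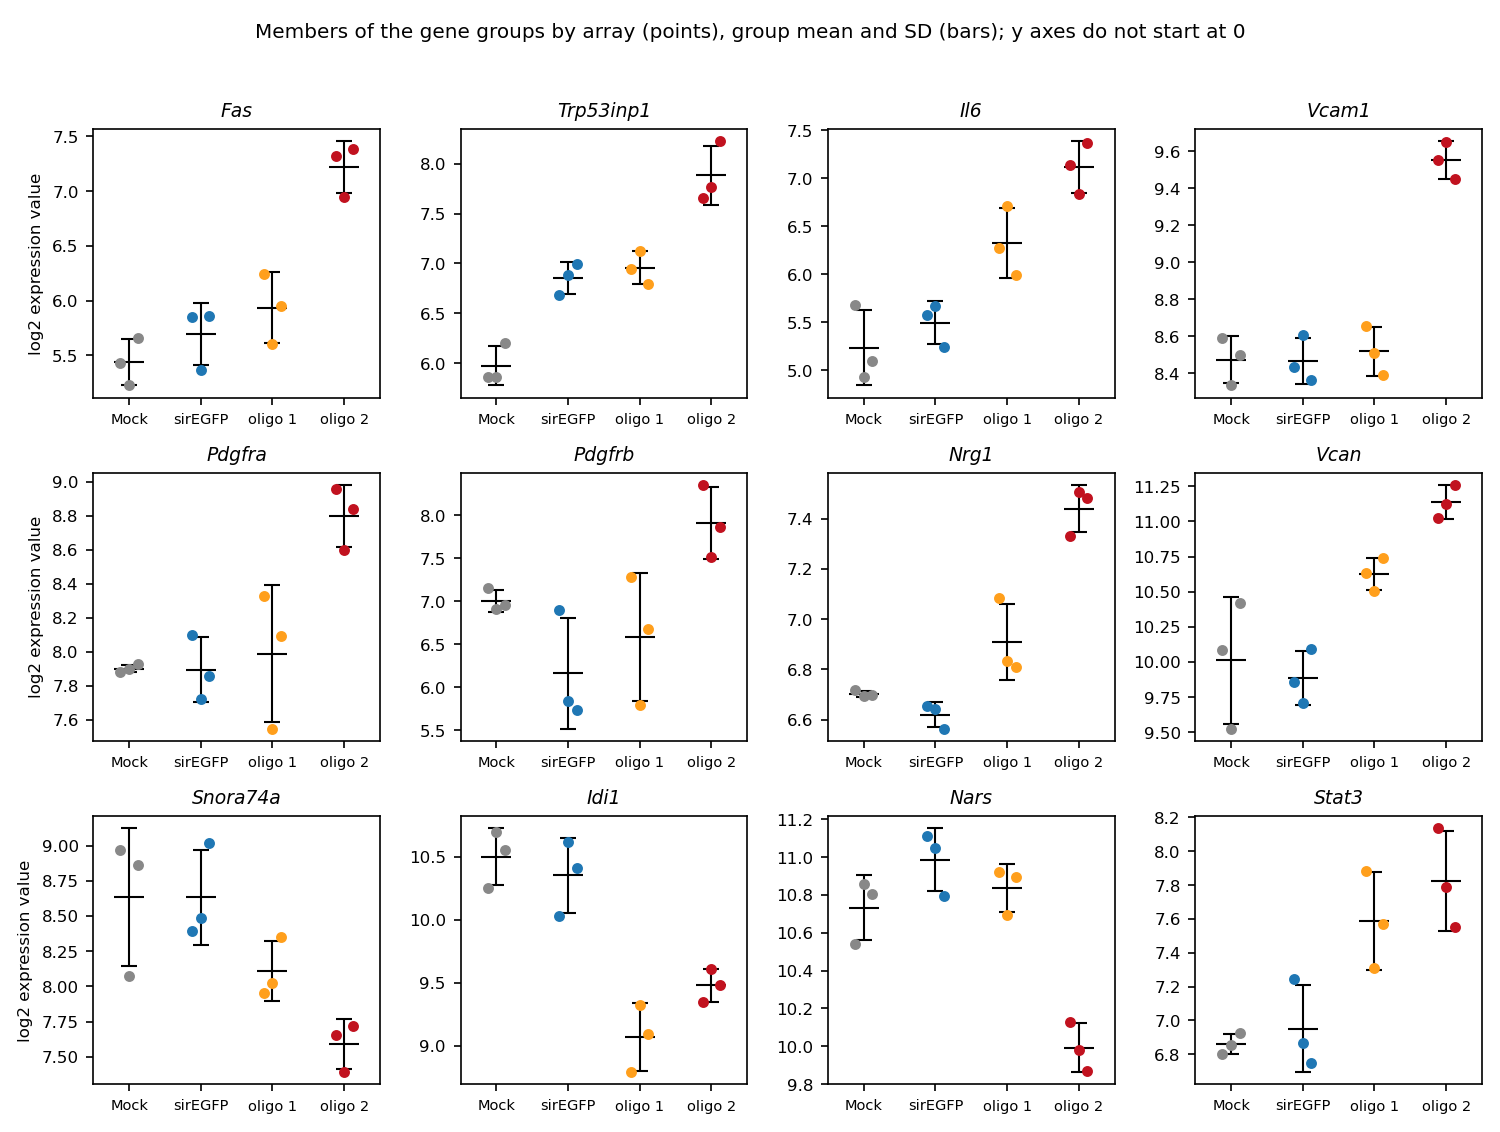
Log2 expression values (y axis, not starting at 0) of 12 members of the gene groups described here, by group (x axis). Points are arrays, and bars are the group mean and SD (n = 3). In several panels, among them Fas, Trp53inp1, Il6, Vcam1, Pdgfrb and Nrg1, all 3 oligo 2 arrays lie above every array of the other groups. In others, among them Snora74a and Nars, all 3 lie below. The 12 members were called genes, and no called gene overlapped sirEGFP, so that separation was set by the choice.

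In redox genes of the NRF2, glutathione and thioredoxin systems 4 of 29 rose and 0 fell, with 11 higher at an unadjusted p under 0.05 and a median of 0.21. Besides Txnip and Cp these were Mgst1, a microsomal glutathione transferase, and Arrdc3, an arrestin-domain relative of Txnip. Mgst1 read 6.82, 7.03 and 7.41 with sirEGFP and 8.57, 8.22 and 8.67 with oligo 2 and rose by 1.40 ± 0.22 (adjusted p = 0.00336), with 0.18 relative to oligo 1 (95% interval -0.29 to 0.66). Arrdc3 rose by 0.81 (0.03098) and was 1.06 above oligo 1 (0.00402). The 4 members that rose differ in function: Cp handles copper and iron, and Txnip also restrains glucose uptake. Mgst1 was lost with sirEGFP 1 and oligo 2 array 1 left out together (adjusted p = 0.0503). Arrdc3 was lost without oligo 2 array 1 or 3, or sirEGFP 2 or 3 (adjusted p = 0.127 to 0.146), or with the 6 arrays fitted alone or sirEGFP 1 and oligo 2 array 1 left out together (adjusted p = 0.0615 to 0.128).

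Among lysosome and autophagy genes limma called 0 of 27, with 4 higher and 1 lower at an unadjusted p under 0.05 and a median of 0.20. Of 24 genes of glycolysis and hypoxia only Bnip3 was called, at a list median of -0.013. Higd1a, another hypoxia target, stood at -0.41 (adjusted p = 0.231).

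SnoRNAs fell in part. Of 51 measured, 7 fell and 0 rose, at a list median of -0.64, while 0.742% of all genes fell. With the block 12 fell, with the block and the 2 groups alone 32, and with the mean of sirEGFP and Mock as control 22. Of all 19938 genes 228, 341 and 314 fell in these fits. Against Mock 20 fell and 0 rose, where 1.32% of all genes fell. Against sirEGFP 33 were lower and 0 higher at an unadjusted p under 0.05, where 1073 of all 19938 genes were lower. Snora73b read 7.30, 7.78 and 7.94 with sirEGFP and 6.37, 6.41 and 6.47 with oligo 2, with a change of -1.25 ± 0.20 (adjusted p = 0.00345). Snora73a and Snora73b are near-identical copies that take part in ribosomal RNA processing, so their probes may read both. Snora73a changed by -1.17 (0.0128), Snord52 by -1.20 (0.0132), Snora74a by -1.04 (0.0203), Snord53 by -0.92 (0.0439) and Snord73a by -0.74 (0.0427). The mean level of the 51 ranged from 7.13 to 7.44 on sirEGFP arrays, 7.11 to 7.80 on Mock arrays and 6.45 to 6.94 with oligo 2. Against oligo 1 limma called 0 of them, at a median of -0.25. The count of 7 became 2 and 2 without oligo 2 arrays 1 and 2, 3 and 1 without sirEGFP 2 and 3, 4 without Mock 3 and 4 without oligo 1 array 3, and the list median stayed between -0.76 and -0.47 in these fits. The 20 against Mock became 3 and 8 without Mock 1 and 3, and 7 and 11 without oligo 2 arrays 2 and 3. They became 32 with the block and 32 with array weights, where 444 and 559 of all 19938 genes fell. Snora73a lost its call without oligo 2 array 1, or sirEGFP 2 or 3 (adjusted p = 0.0677 to 0.0738). Snord52 lost it without oligo 2 array 2, or sirEGFP 3 (adjusted p = 0.0706 to 0.07502). Snora74a lost it without oligo 2 array 1, 2 or 3, or sirEGFP 2 or 3 (adjusted p = 0.0554 to 0.1104), or with sirEGFP 1 and oligo 2 array 1 left out together (adjusted p = 0.0572). Snord53 lost it without oligo 2 array 1 or 2, sirEGFP 1, 2 or 3, Mock 1 or 3, or oligo 1 array 3 (adjusted p = 0.0508 to 0.203), or with the 3 arrays at the axis ends left out, median centring, the 6 arrays fitted alone or sirEGFP 1 and oligo 2 array 1 left out together (adjusted p = 0.0556 to 0.159). Snord73a lost it without oligo 2 array 1 or 2, sirEGFP 1 or 3, Mock 1 or 3, or oligo 1 array 3 (adjusted p = 0.0611 to 0.181), or with the 3 arrays at the axis ends left out, array weights, an intensity trend, median centring, the 6 arrays fitted alone or sirEGFP 1 and oligo 2 array 1 left out together (adjusted p = 0.0518 to 0.195).

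Other small transcripts were read beside the snoRNAs. Of 15 other small non-coding RNAs limma called 0, with 2 lower at an unadjusted p under 0.05 and a median of -0.17. Their mean level ranged from 6.44 to 6.54 on sirEGFP arrays and from 6.20 to 6.37 with oligo 2. The Y RNA Rny1 stood at -0.49 (adjusted p = 0.241). Rny3, another Y RNA, read 11.16, 10.85 and 10.23 with sirEGFP and 10.68, 9.68 and 9.16 with oligo 2 and stood at -0.91 without passing (adjusted p = 0.386). It was lower in each same-numbered pair and was the 1 of the 15 called with the replicate block (adjusted p = 0.00992). The mean levels of both sets of small RNAs lay below their sirEGFP range on all 3 oligo 2 arrays, and the part this plays in the snoRNA result was not tested. The 13 snoRNA host genes, whose introns carry snoRNAs, had 0 called, 2 lower at an unadjusted p under 0.05 and a median of -0.12, and 2 fell with the block. These were Snhg17 (-0.52, adjusted p = 0.0719) and Snhg5 (-0.48, 0.0849).

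Protein genes of the Pol I and ribosome pathways came next. Limma called 0 of 13 genes of the Pol I machinery, with 3 lower at an unadjusted p under 0.05 and a median of -0.064, and with the block 1, Ubtf itself. Taf1a, of the Pol I initiation factor SL1, stood at -0.40 (adjusted p = 0.265). For cytosolic ribosomal proteins limma called 0 of 55, with 8 lower at an unadjusted p under 0.05 and a median of -0.099. Of the 55 changes 5 were above 0, as were 9634 of those of all 19938 genes. Their mean level ranged from 11.61 to 11.65 on sirEGFP arrays and lay below that with oligo 2, from 11.44 to 11.55. Against Mock 2 of the 55 fell and 0 rose, at a median of -0.21, where 1.32% of all genes fell. Rpl30 stood at -0.66 (0.06003), and was the 1 called with the block. Of 55 ribosome biogenesis factors 1 fell (2 with the block) and 0 rose, at a median of -0.057. This was Wdr12, of the PeBoW complex for the large subunit, at -0.61 ± 0.13 (0.0178). Wdr12 was not called without oligo 2 array 1, 2 or 3, or sirEGFP 2 or 3 (adjusted p = 0.0628 to 0.0852), or with sirEGFP 1 and oligo 2 array 1 left out together (adjusted p = 0.0813). Of 26 replication-dependent histones H2bc4 alone was called, at a list median of -0.13.

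Genes of the cell cycle were set against sirEGFP and oligo 1. Against sirEGFP, where 0.742% of all genes fell, of 42 genes of DNA replication and G1/S 1 fell and 0 rose, at a median of 0.035, and of 37 genes of G2/M and mitosis 1 fell and 0 rose, at a median of -0.075. These were Orc2, of the origin recognition complex (-0.61, adjusted p = 0.0343), and Spdl1, of the kinetochore (-0.71, 0.0455). Birc5, for survivin, stood at -0.40 (0.0722). At an unadjusted p under 0.05, 6 of the 37 G2/M genes were lower than sirEGFP and 1 higher. Against Mock 3 of the 37 fell and 0 rose, at a median of -0.22, where 1.32% of all genes fell. Against oligo 1, 15 of the 42 and 12 of the 37 were higher with oligo 2 and 0 lower (2.3% of all genes were higher there), with medians of 0.57 and 0.47. The mean level of the G1/S list ranged from 8.86 to 9.10 with oligo 2, 8.82 to 9.07 with sirEGFP and 8.33 to 8.62 with oligo 1. That of the G2/M list ranged from 9.17 to 9.19 with oligo 2, below its range of 9.20 to 9.40 with sirEGFP. It ranged from 9.29 to 9.51 with Mock and from 8.66 to 8.80 with oligo 1. With the replicate block the counts of 15 and 12 against oligo 1 were 22 and 15, where 669 of all 19938 genes were higher. With array weights they were 32 and 27, where 1729 of all genes were higher. Those weights leaned on oligo 1 array 3, at 8.92 against 0.44 and 0.42 for oligo 1 arrays 1 and 2. Without oligo 2 array 3 the 12 became 5, without array 2 they became 7 and without oligo 1 array 3 they became 5. Without sirEGFP 1 and oligo 1 arrays 1 and 2, which leaves oligo 1 with 1 array whose spread is taken from the other groups, the counts were 4 and 1, at medians of 0.55 and 0.46. Orc2 was not called without oligo 2 array 1, 2 or 3, sirEGFP 2 or 3, or oligo 1 array 3 (adjusted p = 0.0558 to 0.162), or with sirEGFP 1 and oligo 2 array 1 left out together (adjusted p = 0.0707), nor against Mock (-0.35, adjusted p = 0.213). Spdl1 was not called without oligo 2 array 1, 2 or 3, sirEGFP 2 or 3, Mock 1 or 2, or oligo 1 array 3 (adjusted p = 0.0555 to 0.203), or with an intensity trend, quantile normalization or sirEGFP 1 and oligo 2 array 1 left out together (adjusted p = 0.0537 to 0.0733).

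Of 24 genes of cholesterol synthesis and SREBP targets 3 fell and 0 rose, with 9 lower at an unadjusted p under 0.05 and a median of -0.26. Idi1, of isoprenoid synthesis, read 10.03, 10.62 and 10.41 with sirEGFP and 9.35, 9.61 and 9.48 with oligo 2 and stood at -0.88 ± 0.17 (adjusted p = 0.0136). Hsd17b7, of late sterol synthesis, fell by 0.69 (0.0351) and Stard4, a cholesterol carrier, by 0.56 (0.0138). None of the 3 differed from oligo 1 by the test, with Idi1 at 0.41 (95% interval 0.042 to 0.78), Hsd17b7 at -0.12 (-0.46 to 0.22) and Stard4 at 0.12 (-0.11 to 0.36). Idi1 lost its call without oligo 2 array 1 or 3, or sirEGFP 2 or 3 (adjusted p = 0.0567 to 0.0852). Stard4 lost it without oligo 2 array 2 or 3, or sirEGFP 2 or 3 (adjusted p = 0.0514 to 0.0872), and was at -0.40 against Mock (adjusted p = 0.055). Hsd17b7 lost it without oligo 2 array 2 or 3, sirEGFP 1, 2 or 3, Mock 3, or oligo 1 array 3 (adjusted p = 0.0525 to 0.153), or with median centring or sirEGFP 1 and oligo 2 array 1 left out together (adjusted p = 0.0766 to 0.103).

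Of 28 genes of the integrated stress response and amino acid supply 2 fell and 0 rose, at a median of -0.16. Nars, for asparaginyl-tRNA synthetase, read 11.11, 11.05 and 10.80 with sirEGFP and 10.13, 9.98 and 9.87 with oligo 2 and stood at -0.99 ± 0.13 (adjusted p = 0.000877). It was also -0.84 relative to oligo 1 (0.00217). Chac1, which breaks down glutathione, fell by 0.82 (0.0305) and was not called without oligo 2 array 1, 2 or 3, sirEGFP 1 or 3, or oligo 1 array 3 (adjusted p = 0.0508 to 0.133), or with median centring or sirEGFP 1 and oligo 2 array 1 left out together (adjusted p = 0.0547 to 0.171), nor against Mock (-0.60, 0.08599). Among 20 endoplasmic reticulum chaperones limma called 0, with 1 at an unadjusted p under 0.05, and among 28 MAPK feedback and immediate early genes likewise 0 and 1. Sel1l, of the degradation of misfolded proteins, stood at 0.38 (0.326), and Ier3, an immediate early gene, at 0.50 (0.0852).

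Markers of other cell types were called in no further gene. Of 12 skeletal muscle, 11 epithelial and 10 endothelial markers limma called 0, with 0, 1 and 1 at an unadjusted p under 0.05 and medians of -0.038, -0.15 and 0.077. Myod1, the muscle determination factor, stood at -0.24 (adjusted p = 0.581), Cdh1, for E-cadherin, at -0.33 (0.335) and Cdh5, for VE-cadherin, at 0.59 (0.199).

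**Figure D5:**
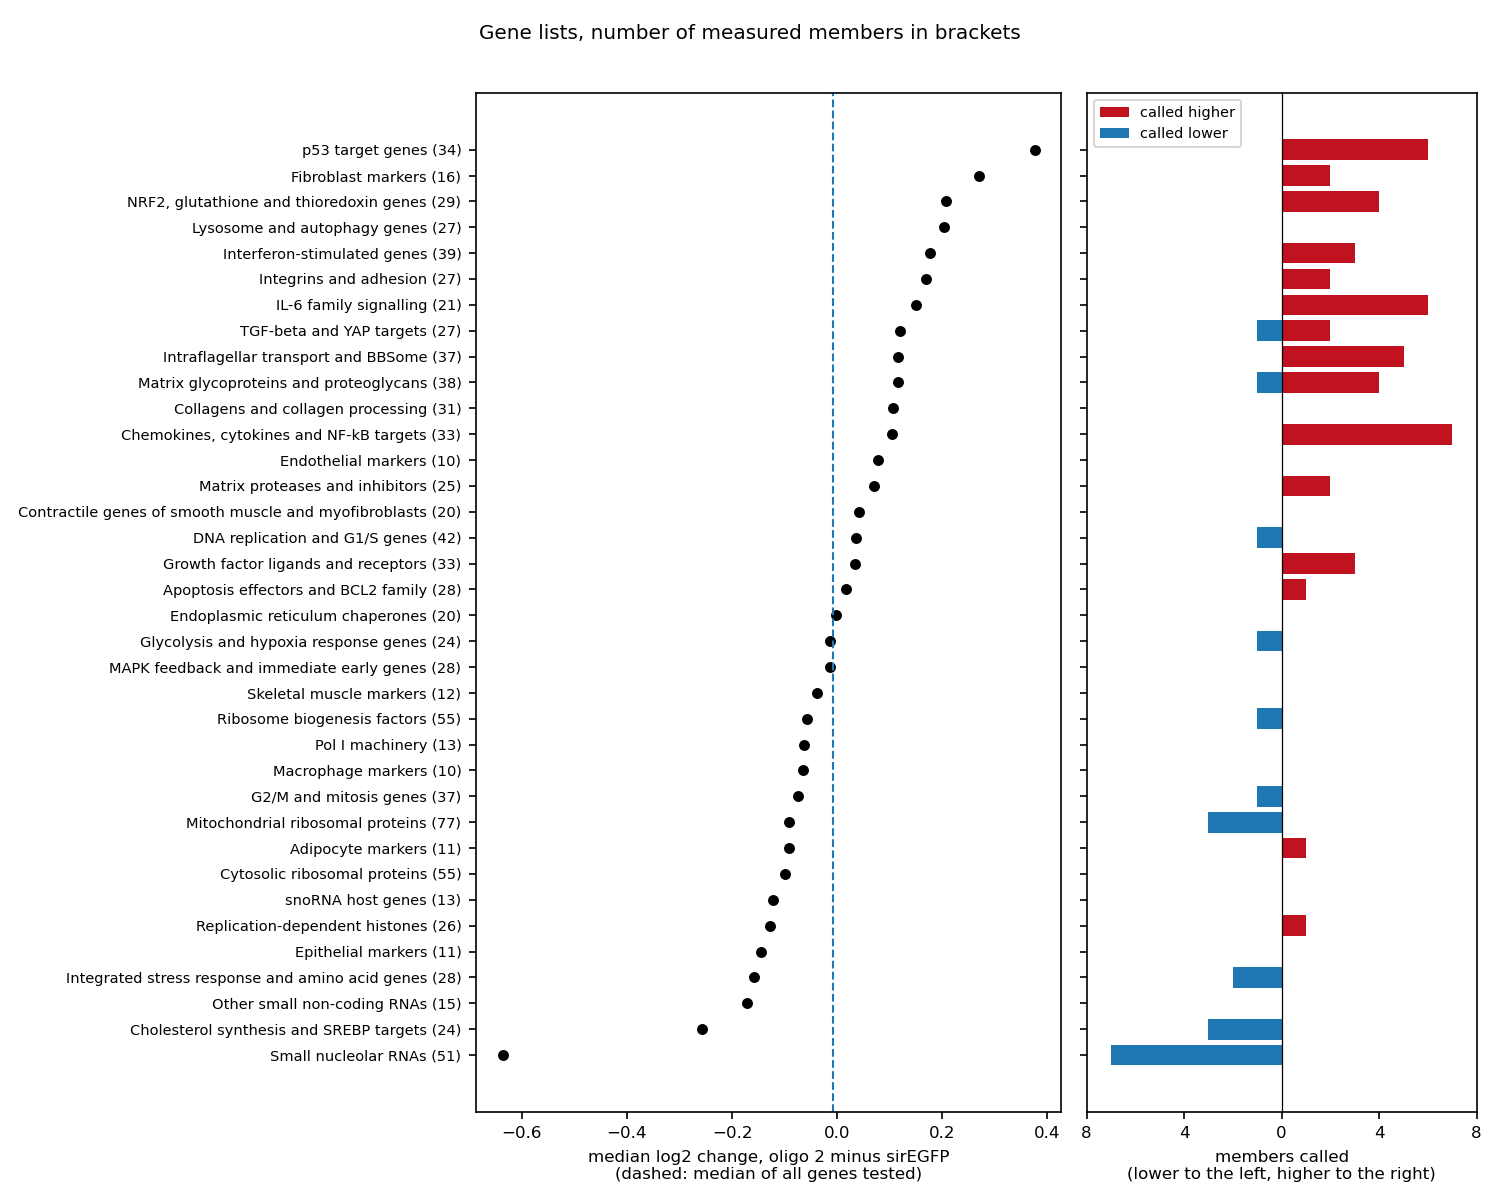
Gene lists (y axis, measured members in brackets) with their median log2 change of oligo 2 against sirEGFP (left, x axis) and the members called lower or higher (right, x axis). The dashed line is the median of all genes, -0.0077. The snoRNA list has the lowest median, -0.64, and the p53 list the highest, 0.38.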

How the data were processed

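The authors deposited log2 values for 35512 probe sets on each of 12 Affymetrix arrays, made from 100 ng of total RNA and 2.5 ug of labelled cDNA, per the labels. How probes were summarised, background-corrected and normalized is not given in the sources used here, while limma stands in the submitters' processing notes, its version not given. Of the probe sets 21789 carried 1 gene symbol, 1621 several and 12102 none in the platform annotation. Symbols were updated by Entrez identifier to RefSeq names (21698 matched), and the probe set with the highest mean over 12 arrays was kept for the 999 genes with several, which left 19938 genes.

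Values were fitted as they stood with R 4.3.3 and its package limma 3.58.1 (two-sided moderated tests from lmFit and eBayes, 4 group coefficients, 12 arrays, 8 residual degrees of freedom), adjusted by Benjamini-Hochberg over all genes. The comparisons were oligo 2 against sirEGFP, Mock and oligo 1, and sirEGFP against Mock. The script was tested on simulated data. Same-numbered arrays of oligo 2 and sirEGFP correlated in their deviations from the group means at 0.548, 0.240 and 0.182, so the numbers, which come from the labels, were taken as pairs. For oligo 2 and oligo 1 these were 0.388, 0.294 and 0.115, and for oligo 2 and Mock 0.068, 0.127 and 0.259. For sirEGFP and Mock they were 0.089, 0.085 and 0.155. Over all pairs of groups the lowest were -0.020, -0.237 and -0.080. The block fits 1 effect per number to all 4 groups, so the pairing it assumes was not uniform.

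Named were Ubtf, the 15 highest and 15 lowest changes among called genes with no overlap between the groups, up to 6 called members of each of 33 gene lists by smallest p (the 2 of smallest p where fewer than 2 were called), and the 6 highest and lowest that also differed from oligo 1. The rankings skipped genes with predicted or clone names. Not every gene given by this rule is described. Some described genes lie outside it, among them Mdm2, Fancb, Vim, Col1a2, Ptprc, Adgre1, Itgam, Csf1r, Adipoq, Plin1 and Pparg. The comparison, the lists and the rule were chosen with earlier results of these data known. Of listed names, 77 were not measured. Alternatives were other normalizations, filters on dim genes, array weights, probe set averages, other eBayes settings, the replicate block, other control groups and each array left out. The alternatives without the 3 arrays at the axis ends (sirEGFP 1 and oligo 1 arrays 1 and 2), without both array 1s (of sirEGFP and oligo 2), and with the block and the 2 groups alone, were chosen after seeing the data, as was the counting of called members under each alternative for 5 of the lists.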

Additional observations from a re-analysis of the deposited data

Results flagged for a closer look

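Of the 13723 probe sets that carry no gene symbol or several, which entered no comparison between genes, 6 differed between oligo 2 and sirEGFP in limma's test at an adjusted p under 0.05, adjusted over these probe sets. Of these 5 were higher and 1 lower, all by at least 2-fold. They stand here because they lie outside the set of named genes. Between sirEGFP and Mock limma called 0 of these probe sets, with 486 at an unadjusted p under 0.05.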

How the results depend on the processing

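Of the genes called for oligo 2 against sirEGFP, Mock and oligo 1 (451, 848 and 732), 0 turned their direction in any alternative that tested them. The calls came from these same arrays, so this was largely fixed in advance. For oligo 2 against sirEGFP the called genes, with those higher and lower, were 1049 (737 and 312) with the arrays at the axis ends dropped, 1180 (762 and 418) with array weights, 979 (665 and 314) with the mean of both controls, and 203 (130 and 73) without both array 1s. With the replicate block they were 773 (545 and 228), and 1099 (758 and 341) with the block and the 2 groups alone. Leaving out 1 array at a time gave 198 to 627 genes (141 to 433 and 52 to 194). Ubtf passed at -0.61 with array weights, with the block and with the block and the 2 groups alone (adjusted p = 0.0204, 0.0115 and 0.0147), and at -0.70 with the mean of both controls (0.0114). Without single arrays it lay between -0.76 and -0.44. The block gained calls named beside their results and lost none of the 451. Against Mock, the counts were 1314 (861 and 453) without the axis ends, 1610 (1051 and 559) with weights, 1290 (846 and 444) with the block, 1447 (911 and 536) with the block and the 2 groups alone, 510 (319 and 191) without both array 1s, and 307 to 1044 (226 to 700 and 80 to 345) without single arrays. Against oligo 1 they were 211 (128 and 83) without the axis ends, where 1 oligo 1 array is left and its spread comes from the other groups, 3164 (1729 and 1435) with weights, 380 (243 and 137) with the 2 groups alone, 1094 (669 and 425) with the block, 488 (283 and 205) without both array 1s, and 328 to 833 (200 to 523 and 128 to 310). For sirEGFP against Mock, weights gave 2 (both lower), the block 3 (all lower), the block with the 2 groups alone 7 (2 and 5), and single arrays 0 to 1 (0 to 1 lower). The cause was not tested. With 3 arrays a group, leaving 1 out leaves 2 in that group, and signal over background is unknown.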

Other observations

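The lists in this section were put together after the values had been seen, so their counts are descriptions. Of all genes 1.52% were called higher and 0.742% lower. Of 21 genes of IL-6 family signalling 6 (28.6%) were called higher and 0 lower with oligo 2 against sirEGFP, at a median of 0.15. Beside Osmr, Il6 and Lif these were Stat3, the transcription factor of the pathway, Il6st, for the shared receptor gp130, and Cebpd, a transcription factor induced by IL-6. Stat3 read 7.24, 6.87 and 6.75 with sirEGFP and 8.14, 7.79 and 7.55 with oligo 2, a change of 0.87 ± 0.18 (limma adjusted p = 0.0152). Il6st rose by 0.53 (0.0376) and Cebpd by 0.57 (0.0464). Osmr and Cebpd were also above oligo 1, by 1.46 and 0.58 (6.91e-05 and 0.0291). Stat3 was not called without oligo 2 array 1 or 2, or sirEGFP 2 or 3 (adjusted p = 0.0527 to 0.0907). Il6st was not called without oligo 2 array 1, 2 or 3, sirEGFP 2 or 3, Mock 1, or oligo 1 array 3 (adjusted p = 0.0555 to 0.173), or with the mean of sirEGFP and Mock as control, the 6 arrays fitted alone or sirEGFP 1 and oligo 2 array 1 left out together (adjusted p = 0.0555 to 0.113), nor against Mock (0.24, adjusted p = 0.413). Cebpd was not called without oligo 2 array 1, 2 or 3, sirEGFP 2 or 3, Mock 1, 2 or 3, or oligo 1 array 3 (adjusted p = 0.06098 to 0.221), or with an intensity trend, the 6 arrays fitted alone or sirEGFP 1 and oligo 2 array 1 left out together (adjusted p = 0.0566 to 0.151).

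Of 37 genes of intraflagellar transport and the BBSome, which build and maintain the primary cilium, 5 (13.5%) were called higher and 0 lower, at a median of 0.12. Dync2li1, a light intermediate chain of the cilium's retrograde dynein, read 5.68, 5.59 and 5.43 with sirEGFP and 6.34, 6.33 and 6.55 with oligo 2, a rise of 0.84 ± 0.12 (adjusted p = 0.00126). Bbs2, of the BBSome, rose by 0.91 (0.00494), Wdr19, of the transport complex IFT-A, by 0.85 (0.015), Ift81, of IFT-B, by 0.63 (0.0155) and Dync2h1, the dynein heavy chain, by 0.51 (0.0305). Bbs2 lost its call with sirEGFP 1 and oligo 2 array 1 left out together (adjusted p = 0.0707). Wdr19 lost it without oligo 2 array 1 or 3, or sirEGFP 3 (adjusted p = 0.0732 to 0.0886), or with sirEGFP 1 and oligo 2 array 1 left out together (adjusted p = 0.105). Ift81 lost it without oligo 2 array 1 or 3, or sirEGFP 2 or 3 (adjusted p = 0.0559 to 0.0954), or with sirEGFP 1 and oligo 2 array 1 left out together (adjusted p = 0.118). Dync2h1 lost it without oligo 2 array 1, 2 or 3, or sirEGFP 1, 2 or 3 (adjusted p = 0.0597 to 0.125), or with the 6 arrays fitted alone or sirEGFP 1 and oligo 2 array 1 left out together (adjusted p = 0.0501 to 0.113). Of 77 mitochondrial ribosomal proteins 3 (3.90%) were called lower and 0 higher, at a median of -0.091. Beside Mrpl3 these were Mrps15 (-0.69, 0.0132) and Mrpl18 (-0.63, 0.0263). Mrps15 was not called without oligo 2 array 1 or 3, or sirEGFP 2 or 3 (adjusted p = 0.06799 to 0.0743), or with sirEGFP 1 and oligo 2 array 1 left out together (adjusted p = 0.0714). Mrpl18 was not called without oligo 2 array 2 or 3, or sirEGFP 1, 2 or 3 (adjusted p = 0.0631 to 0.126), or with the 3 arrays at the axis ends left out, median centring or the 6 arrays fitted alone (adjusted p = 0.0505 to 0.0647).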
